A study of Mus musculus with 8 samples.

Results

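The 48 genes described here are the cell cycle and proliferation genes of tumor-associated macrophages (TAMs). They were chosen by name from what each is known to do, with earlier results of these data known, so the list is not independent evidence. They fall into 14 S phase genes, 19 genes of G2 and mitosis (G2/M) and 15 cyclins, kinases, inhibitors and transcription factors, called regulators below. All 48 were listed among the 26939 genes of the joined count tables, and all 48 passed the filter on low counts in each comparison.

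The TAMs came from tumors of EO771, a mouse breast cancer cell line, at day 21 after inoculation, and the sort kept viable cells with CD45, CD11b and F4/80 on the surface and without Gr-1. Bulk poly-A RNA-seq gave 8 libraries in 4 groups of 2, which pair each genotype (WT or Unc93b1 3d/3d) with each treatment (control or αMARCO). The mice were female C57BL/6J animals aged 8 to 14 weeks, and Unc93b1 3d/3d mice carry a mutation throughout the body that leaves the endosomal Toll-like receptors (TLR3, TLR7 and TLR9) without function. αMARCO is a rat IgG1 antibody (clone ED31) against the scavenger receptor MARCO, given at 100 µg on days 3, 6, 9 and 12. The control samples are labelled untreated and their library names say PBS, whereas the protocol names an isotype IgG1, so the control injection is not settled. One Unc93b1 3d/3d control library carries a genotype label of 3d/4d beside a title of 3d/3d. Each control library was a pool of TAMs from 3 mice, so the spread between the libraries of a group is a spread between pools, and for the αMARCO libraries the pooling is not stated.

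Cells copy their DNA in S phase and separate the copies in mitosis. D-type cyclins with CDK4 and CDK6 start the cycle, E2F factors then turn on the genes of DNA replication, and a later program under MYBL2 and FOXM1 turns on the genes of mitosis. Macrophages in tumors come from recruited monocytes and from division in place, and their cycling is driven largely by CSF1. The comparisons below ask how these genes differed with αMARCO and with the loss of endosomal TLR signaling.

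Library totals ran from 15182618 to 26411936 counts, so that 3 counts, taken as the floor of detection, stood for 0.114 to 0.198 CPM. Levels are given as CPM, a gene's counts scaled to the size of its library with TMM factors over the 8 libraries. Unc93b1 was at 848 and 965 CPM in WT control and at 539 and 660 CPM in Unc93b1 3d/3d control, and since the 3d allele is a point mutation that leaves a transcript, this level does not check the genotype labels. Marco, with 1 to 17 counts in a library, did not pass the filter. The 9 macrophage markers that could be matched to 1 gene each summed to between 8285 and 12680 CPM in every library. Their sums were 11626 and 12680 CPM in WT control and, lower without overlap, 8827 and 9073 CPM in WT αMARCO. In Unc93b1 3d/3d they were 9178 and 11006 CPM in control and 8285 and 11836 CPM with αMARCO. Csf1r, the receptor for CSF1, lay between 904 and 1131 CPM. Markers of other cells also moved with the groups. The 12 T cell markers summed to 127 and 144 CPM in WT control, 30.9 and 15 CPM in Unc93b1 3d/3d control, 14 and 20.3 CPM in WT αMARCO and 10.5 and 9.79 CPM in Unc93b1 3d/3d αMARCO. The 8 dendritic cell markers summed to 728 and 390 CPM in WT control against 58.3 to 114 CPM in the other 6 libraries. All 12 T cell markers passed the test as higher in WT control than in Unc93b1 3d/3d control and as lower in WT αMARCO than in WT control.

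The 2 Unc93b1 3d/3d αMARCO libraries stood apart from each other. Over 16620 genes the standard deviation of the log2 difference between the replicates was 1.01 in that group and 0.44 to 0.58 in the other 3. The difference ran with gene length. With all genes split by length into 4 equal classes, genes in the shortest class were higher in replicate 2 by a median of 0.35 on the log2 scale, and genes in the longest class were lower by a median of 0.41, while in the other groups these medians stayed between -0.03 and 0.05. Among the members, 18 of 48 differed by over 0.5 on the log2 scale between these replicates, against 1 to 3 members in the other groups. Results that rest on these libraries are therefore given below with and without each of them.

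**Figure D1:**
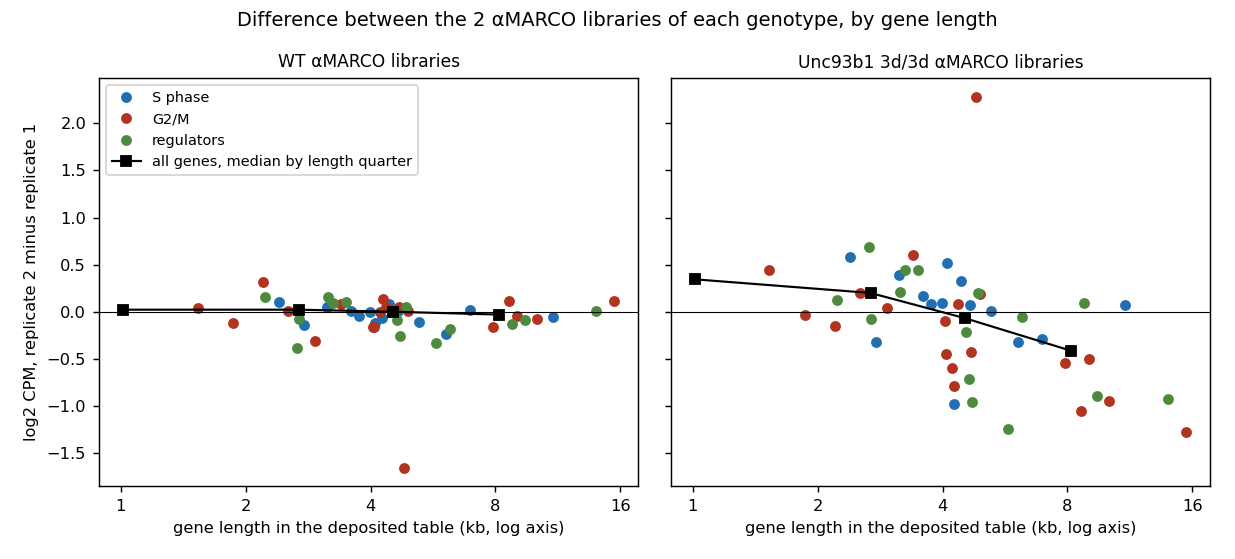
Log2 CPM of each member in replicate 2 minus replicate 1 (vertical axis) against the gene length in kb as deposited (log axis), for the 2 αMARCO groups, with black squares for the median of all genes in each of 4 classes of length. In WT αMARCO the medians stay near 0, whereas in Unc93b1 3d/3d αMARCO they run from 0.35 for the shortest genes to -0.41 for the longest, and the single member far from the rest in both panels is Kif11, which had 389 counts over the 8 libraries.

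Per kb of gene length, Cdkn1a, which encodes the CDK inhibitor p21, had the highest mean level of the 48 members at 217 CPM per kb. Pcna, the sliding clamp of DNA polymerase, followed at 78.5 CPM per kb. The S phase members otherwise reached down to 1.82 CPM per kb (Cdc6), and the G2/M members lay between 0.558 CPM per kb (Kif11) and 14.1 CPM per kb (Mki67). The libraries of sorted TAMs thus held measurable message of replication and of mitosis in every group, and which cells it came from was not tested.

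The sum over the 14 S phase members was 962 and 1018 CPM in WT control, 706 and 811 CPM in Unc93b1 3d/3d control, 693 and 701 CPM in WT αMARCO and 662 and 755 CPM in Unc93b1 3d/3d αMARCO. WT control stood above the other 3 groups, and these overlapped in part. For the 19 G2/M members the sums were 726 and 853 CPM, 656 and 725 CPM, 532 and 521 CPM, and 459 and 343 CPM in the same order. Here WT control lay just above Unc93b1 3d/3d control, and both αMARCO groups lay below both controls. The 15 regulators summed to between 1287 and 1554 CPM, with the groups close together. In these bulk samples, fewer cycling cells and less of these RNAs per cell cannot be told apart.

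**Figure D2:**
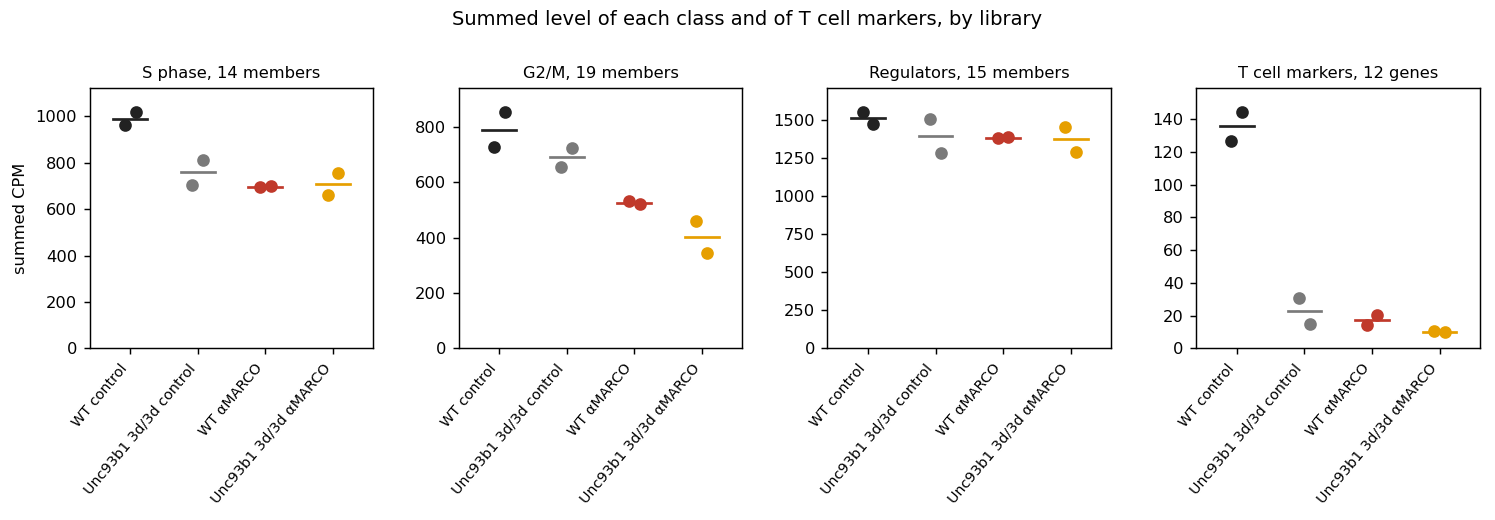
Summed CPM of the S phase, G2/M and regulator members and of 12 T cell markers (vertical axes from 0), with 1 point per library and a line at the mean of the 2 libraries of each group. S phase sums are highest in WT control, G2/M sums are lower in both αMARCO groups than in both control groups, and T cell markers sum to 127 and 144 CPM in WT control against 9.79 to 30.9 CPM elsewhere.

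αMARCO in WT mice gave the largest number of calls among the members. A gene was called where edgeR's quasi-likelihood test gave an adjusted p of at most 0.05 and the log2 fold change was at least 0.5 in size, with p-values adjusted over all 15630 genes tested. By that rule 28 of the 48 members were called, 27 lower and 1 higher with αMARCO. Over all genes tested 20.7% were called, 11.8% lower and 8.91% higher. With all 8 libraries in 1 model, which takes in the Unc93b1 3d/3d αMARCO pair, 5 members and 0.987% of all genes were called. At a log2 fold threshold of 1, 3 members (6.25%) were called against 8.74% of all genes. The median log2 fold change was -0.56 over the members and -0.01 over all genes. Both αMARCO libraries lay below both controls for 37 members, which held for 36.8% of all genes tested.

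S phase and mitotic genes are known for different promoter elements, E2F sites in the first and a cell cycle homology region (CHR) with CCAAT boxes in the second. Promoter windows from 250 bases before to 50 bases after the RefSeq start (GRCm38.p6) were found for 39 of the 48 members. Those without a window were Aurkb, Ccna2, Ccnd1, Ccnd2, Ccne2, Foxm1, Gins2, Mcm4 and Tpx2. Both strands were searched for TTTCGCGC, TTTGGCGC and TTTCCCGC (E2F), for TTTGAA and TTCGAA (CHR) and for CCAAT. A match is a description of letters and not a bound site. E2F letters were in 7 of the 14 S phase windows, in 1 of the 16 G2/M windows and in 1.84% of all 32851 windows, which include windows of noncoding genes. The CHR letters were in 12 of the 16 G2/M windows (75.0%), each time together with CCAAT, against 19.2% of all windows for CHR and 7.52% for both. In the S phase windows the CHR letters were in 2 of 14 (14.3%).

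The elements did not sort called from uncalled members. Among the G2/M members with a window, CHR and CCAAT were both present in 9 of the 12 called lower in WT and in 3 of the 4 not called. E2F letters were in 3 of the 7 S phase members called lower and in 4 of the 5 others. Most uncalled members of these classes had negative estimates too. Over the classes 19 of 19 G2/M and 13 of 14 S phase members had negative log2 fold changes in WT. The contrast thus splits mostly falling genes at the call, on few members. The windows of the 2 G2/M and the 3 S phase members with the largest called decreases that hold an element are shown, 5′ to 3′ on the strand of the gene. Cdc20 (chr4:118437294-118437593, minus strand) and Ccnb2 (chr9:70421505-70421804, minus strand) carry CHR and CCAAT letters, in capitals. In Ccnb2 the 3 CCAAT boxes start 87, 54 and 21 bases before the start, 33 bases from one to the next.
Cdc20: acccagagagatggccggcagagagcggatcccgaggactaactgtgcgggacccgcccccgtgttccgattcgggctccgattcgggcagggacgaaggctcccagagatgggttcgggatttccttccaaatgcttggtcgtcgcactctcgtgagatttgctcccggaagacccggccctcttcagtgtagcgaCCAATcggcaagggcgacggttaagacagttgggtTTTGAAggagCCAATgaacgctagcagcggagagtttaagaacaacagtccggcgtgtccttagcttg
Ccnb2: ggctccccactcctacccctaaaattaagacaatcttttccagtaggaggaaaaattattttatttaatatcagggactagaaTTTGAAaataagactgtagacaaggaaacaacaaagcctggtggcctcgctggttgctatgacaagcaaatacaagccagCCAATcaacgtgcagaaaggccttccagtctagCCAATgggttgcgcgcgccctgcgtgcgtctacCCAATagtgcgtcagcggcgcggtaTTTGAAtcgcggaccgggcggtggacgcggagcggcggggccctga

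For S phase, Rrm2 (chr12:24708004-24708303, plus strand) has a single CCAAT box, Mcm7 (chr5:138171834-138172133, minus strand, the window of the 2 annotated starts that holds E2F letters) has E2F, CHR and CCAAT letters on either strand, and Cdc6 (chr11:98907901-98908200, plus strand) has a single E2F match on the reverse strand. Capitals again mark the matches, and near the Mcm7 start an E2F match and a CCAAT box overlap.
Rrm2: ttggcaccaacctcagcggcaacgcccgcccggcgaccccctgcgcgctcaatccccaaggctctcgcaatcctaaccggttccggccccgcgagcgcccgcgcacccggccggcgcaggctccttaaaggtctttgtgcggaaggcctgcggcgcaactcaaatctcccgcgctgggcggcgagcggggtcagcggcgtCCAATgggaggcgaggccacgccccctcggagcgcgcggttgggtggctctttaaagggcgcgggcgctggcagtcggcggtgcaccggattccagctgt
Mcm7: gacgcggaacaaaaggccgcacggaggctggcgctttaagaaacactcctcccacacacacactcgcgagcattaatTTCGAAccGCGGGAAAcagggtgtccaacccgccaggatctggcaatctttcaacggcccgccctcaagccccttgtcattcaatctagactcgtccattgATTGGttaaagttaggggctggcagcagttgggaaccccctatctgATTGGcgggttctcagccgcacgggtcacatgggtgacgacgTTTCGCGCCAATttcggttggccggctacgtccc
Cdc6: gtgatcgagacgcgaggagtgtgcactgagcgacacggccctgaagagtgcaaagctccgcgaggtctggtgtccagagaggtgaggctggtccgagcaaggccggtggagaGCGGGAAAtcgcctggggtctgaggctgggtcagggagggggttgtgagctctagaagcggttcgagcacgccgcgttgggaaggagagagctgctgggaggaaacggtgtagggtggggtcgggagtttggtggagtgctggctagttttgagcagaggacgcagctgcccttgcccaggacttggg

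Of the 14 S phase members, 9 were called lower, and the median log2 fold change of the 14 was -0.68. Rrm2, the regulated subunit of ribonucleotide reductase, stood at 42.6 and 49.7 CPM in WT control, 25.2 and 23.9 CPM in Unc93b1 3d/3d control, 23.0 and 20.8 CPM in WT αMARCO and 20.4 and 16.4 CPM in Unc93b1 3d/3d αMARCO. WT control was set apart above the other 3 groups. The log2 fold change with αMARCO in WT was -1.07 ± 0.11 (SE, adjusted p = 0.000212), a level 2.10-fold lower. Tyms, the synthase that makes thymidylate for DNA, stood at 16.1 and 18 CPM in WT control, 14.1 and 14.2 CPM in Unc93b1 3d/3d control, 9.32 and 7.91 CPM in WT αMARCO and 9.34 and 7.48 CPM in Unc93b1 3d/3d αMARCO. Both αMARCO groups were below both controls, and in WT Tyms fell by 0.98 ± 0.16 on the log2 scale (SE, adjusted p = 0.00171). 

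Mcm7, a subunit of the MCM helicase that opens DNA at origins, was at 61.8 and 66.0 CPM in WT control, 40.1 and 47.7 CPM in Unc93b1 3d/3d control, 32.6 and 34.5 CPM in WT αMARCO and 33.8 and 42.4 CPM in Unc93b1 3d/3d αMARCO. WT control was again alone at the top, and the αMARCO effect in WT was -0.92 ± 0.09 (SE, adjusted p = 0.000160). Counting did not state a strand, and Mcm7 overlaps Cops6 and Ap4m1 on the other strand, so reads of these genes cannot be told apart. The limit holds for other members too, as 17 of the 48 overlap another listed gene. Among them, Ccnd3 overlaps Bysl, Ccna2 overlaps Exosc9 and Nusap1 overlaps Oip5, each on the other strand. The helicase subunit Mcm5 fell by 0.82 ± 0.08 (SE, adjusted p = 0.000168), from 87.0 and 93.0 CPM to 50.7 and 50.8 CPM. Mcm2, Mcm4, Rrm1 (the large subunit of ribonucleotide reductase), Gins2 (a helicase cofactor) and Cdc6 (a loader of the helicase) also fell, by 0.55 to 0.89 on the log2 scale.

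The 5 S phase members that were not called passed the adjusted p and missed the fold. Pcna was at 228 and 242 CPM in WT control, 158 and 170.0 CPM in Unc93b1 3d/3d control, 162 and 174 CPM in WT αMARCO and 148 and 223 CPM in Unc93b1 3d/3d αMARCO, and its log2 fold change in WT was -0.47 ± 0.08 (SE, adjusted p = 0.00209). Its WT groups did not overlap, and the 2 Unc93b1 3d/3d αMARCO libraries were far apart. Mcm6, another helicase subunit, was at 85.8 and 96.6 CPM in WT control, 71.4 and 88.7 CPM in Unc93b1 3d/3d control, 65.4 and 66.0 CPM in WT αMARCO and 71.2 and 75.0 CPM in Unc93b1 3d/3d αMARCO, with a log2 fold change in WT of -0.46 ± 0.09 (SE, adjusted p = 0.00297). The WT controls overlapped with the Unc93b1 3d/3d controls and lay above both αMARCO groups.

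Cdt1, the licensing factor that brings the helicase to origins and that is broken down in S phase, had the opposite sign. It read 70.3 and 73.7 CPM in WT control, 62.6 and 87.7 CPM in Unc93b1 3d/3d control, 90.7 and 94.2 CPM in WT αMARCO and 76.2 and 100.4 CPM in Unc93b1 3d/3d αMARCO. WT αMARCO was above WT control in both libraries, with a log2 fold change of 0.37 ± 0.08 (SE, adjusted p = 0.00566), under the fold threshold.

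Among the 19 G2/M members 15 were called lower and none higher, all 19 log2 fold changes were negative, and their median was -0.80. Cdc20, the activator of the anaphase-promoting complex, stood at 26.2 and 28.7 CPM in WT control, 17.3 and 22.7 CPM in Unc93b1 3d/3d control, 11.6 and 10.7 CPM in WT αMARCO and 10.4 and 10.2 CPM in Unc93b1 3d/3d αMARCO. Both αMARCO groups were below both controls without overlap. In WT its log2 fold change was -1.29 ± 0.13 (SE, adjusted p = 0.000168), the largest among the called members, or 2.45-fold lower. Cdc20 overlaps Elovl1 on the other strand. 

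Nusap1, a protein that bundles spindle microtubules, was at 16.6 and 20.2 CPM in WT control, 11.3 and 15.1 CPM in Unc93b1 3d/3d control, 8.83 and 7.87 CPM in WT αMARCO and 7.99 and 7.48 CPM in Unc93b1 3d/3d αMARCO. Ccnb2, a mitotic cyclin that binds CDK1, was at 28.9 and 31.7 CPM in WT control, 22.5 and 24.0 CPM in Unc93b1 3d/3d control, 15.1 and 15.5 CPM in WT αMARCO and 11.9 and 16.3 CPM in Unc93b1 3d/3d αMARCO. For both genes the order was WT control, then Unc93b1 3d/3d control, then the 2 αMARCO groups, which overlapped with each other. Nusap1 fell by 1.13 ± 0.16 (SE, adjusted p = 0.000934) and Ccnb2 by 0.98 ± 0.11 (SE, adjusted p = 0.000377) on the log2 scale in WT.

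Tpx2, which activates the kinase Aurora A on the spindle, was at 45.3 and 48.7 CPM in WT control, 41.4 and 47.5 CPM in Unc93b1 3d/3d control, 24.3 and 25.1 CPM in WT αMARCO and 32.2 and 24.1 CPM in Unc93b1 3d/3d αMARCO. The 2 control groups overlapped and lay above all 4 αMARCO libraries, and the log2 fold change in WT was -0.92 ± 0.10 (SE, adjusted p = 0.000212). Top2a, the topoisomerase that untangles chromosomes, was at 111 and 127 CPM in WT control, 96.6 and 102 CPM in Unc93b1 3d/3d control, 78.8 and 76.6 CPM in WT αMARCO and 73.5 and 51.9 CPM in Unc93b1 3d/3d αMARCO. It fell by 0.61 ± 0.09 (SE, adjusted p = 0.000920) in WT, with no overlap between αMARCO and control libraries of either genotype. The kinases Cdk1, Aurka, Aurkb, Bub1, Bub1b and Plk1, the cyclins Ccna2 and Ccnb1, the chromosomal passenger Birc5 and the midzone motor Kif23 also fell in WT, by 0.51 to 0.92 on the log2 scale. Kif23 lost its call without WT control replicate 2 (-0.38) and without αMARCO replicate 2 (-0.44), and Bub1 (-0.79) and Plk1 (-0.38) lost theirs without αMARCO replicate 1.

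The 4 G2/M members that were not called were Mki67, Cenpe, Cenpf and Kif11. Mki67, which encodes the Ki-67 antigen used to stain cycling cells, was at 147 and 191 CPM in WT control, 155 and 178 CPM in Unc93b1 3d/3d control, 154 and 147 CPM in WT αMARCO and 105 and 54.9 CPM in Unc93b1 3d/3d αMARCO. WT control overlapped with Unc93b1 3d/3d control and with WT αMARCO, Unc93b1 3d/3d αMARCO lay lowest, and the log2 fold change in WT was -0.16 ± 0.12 (SE, adjusted p = 0.323). Cenpf, a large kinetochore protein, was at 16.1 and 20.5 CPM in WT control, 25.1 and 26.4 CPM in Unc93b1 3d/3d control, 16.9 and 18.2 CPM in WT αMARCO and 20.7 and 8.5 CPM in Unc93b1 3d/3d αMARCO, and the log2 fold change in WT was -0.05 ± 0.15 (SE, adjusted p = 0.833). For both genes the WT αMARCO libraries overlapped the WT controls, and their estimates moved with the control library left out. Without WT control replicate 2 the log2 fold changes were 0.034 for Mki67 and 0.13 for Cenpf, and without WT control replicate 1 they were -0.34 (adjusted p = 0.00623 by edgeR, under the fold threshold) for Mki67 and -0.22 for Cenpf. With the trend on gene length taken out, the values were -0.30 for Mki67 and -0.28 for Cenpf, neither of them called. The kinetochore motor Cenpe had a log2 fold change of -0.22 ± 0.14 (SE, adjusted p = 0.239). The spindle motor Kif11 had few counts, and its 95% interval in WT ran from -2.68 to 0.24.

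**Figure D3:**
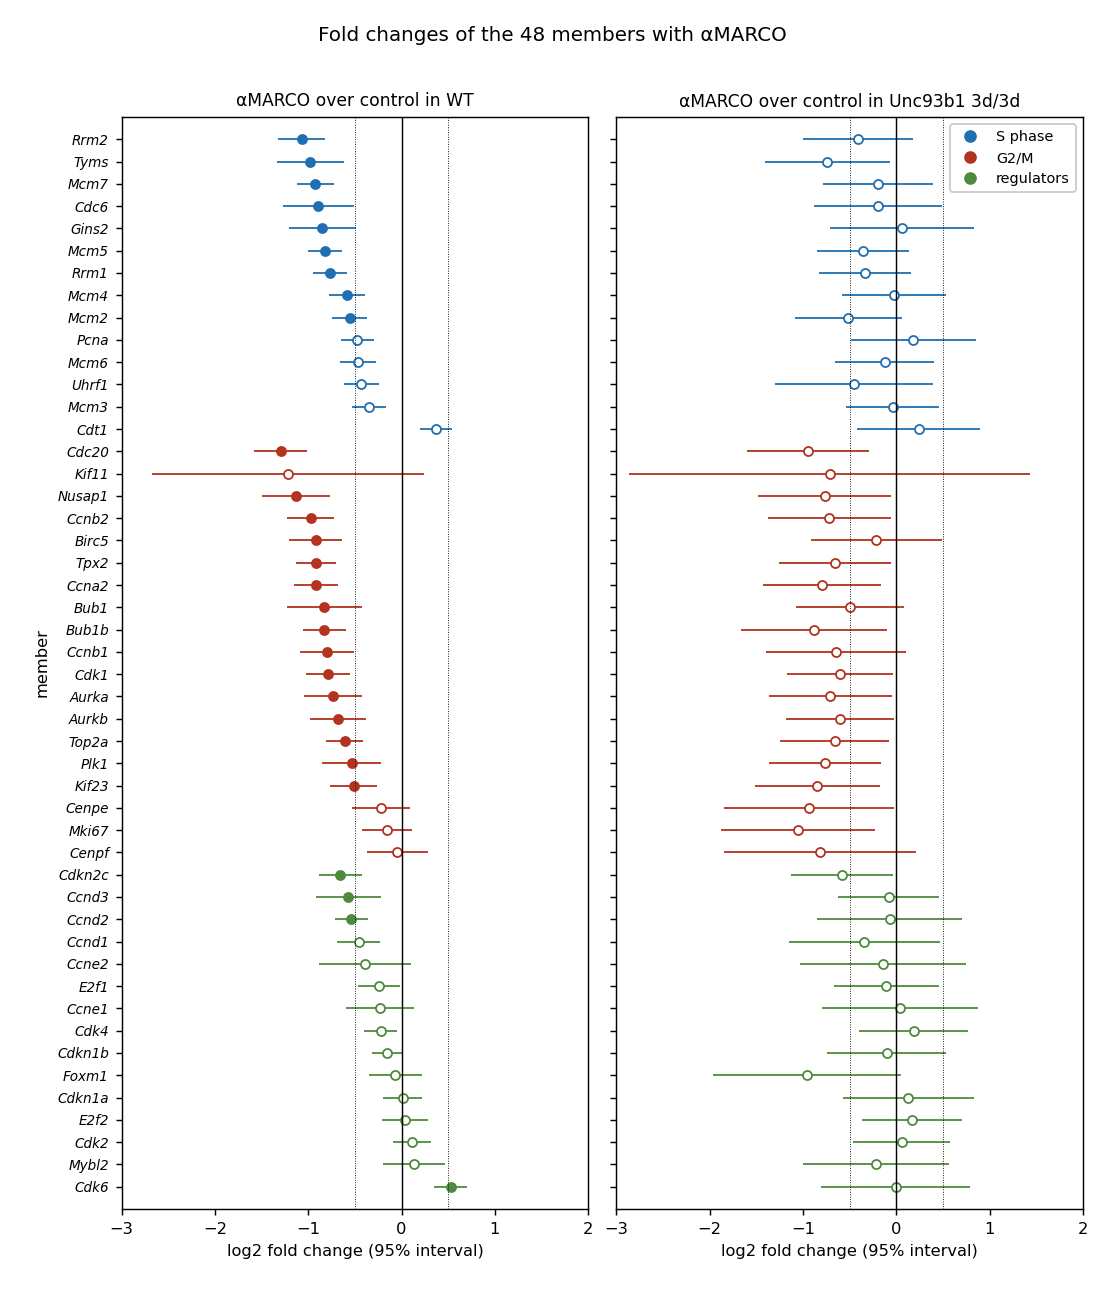
Log2 fold change of αMARCO over control for each of the 48 members (rows), in WT (left) and in Unc93b1 3d/3d (right), with bars for the 95% interval, filled circles for called members, open circles for the others and dotted lines at -0.5 and 0.5. In WT, 27 filled circles lie to the left and Cdk6 to the right, while in Unc93b1 3d/3d no member is called and the intervals are wider, though all 19 G2/M members lie left of 0.

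Of the 15 regulators 3 were called lower and 1 higher, and the median log2 fold change was -0.22. In all 26.7% of them were called, near the 20.7% of all genes called. Cdkn2c, which encodes the CDK4 and CDK6 inhibitor p18, was at 35.1 and 32.5 CPM in WT control, 29.1 and 27.4 CPM in Unc93b1 3d/3d control, 21.9 and 20.8 CPM in WT αMARCO and 19.3 and 18.3 CPM in Unc93b1 3d/3d αMARCO. Its 4 groups followed each other without overlap, and in WT it fell by 0.65 ± 0.10 (SE, adjusted p = 0.00147). The D-type cyclin Ccnd3 was at 148 and 108 CPM in WT control, 105 and 82.3 CPM in Unc93b1 3d/3d control, 89.6 and 81.7 CPM in WT αMARCO and 85.0 and 90.8 CPM in Unc93b1 3d/3d αMARCO. Its WT controls were highest but far apart, and replicate 2 was above the Unc93b1 3d/3d controls by little. It fell by 0.57 ± 0.15 (SE, adjusted p = 0.0237), a call that was lost without WT control replicate 1 (-0.34), without αMARCO replicate 1 (-0.63) and without αMARCO replicate 2 (-0.51).

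Ccnd2, another D-type cyclin, was at 163 and 152 CPM in WT control, 111 and 98.5 CPM in Unc93b1 3d/3d control, 111 and 104 CPM in WT αMARCO and 129 and 69.6 CPM in Unc93b1 3d/3d αMARCO, and it fell by 0.54 ± 0.08 (SE, adjusted p = 0.000977) in WT, or by 0.49 and below the fold threshold without WT control replicate 1. Its kinase partner Cdk6 went the other way. It was at 118 and 128 CPM in WT control, 140.1 and 147 CPM in Unc93b1 3d/3d control, 175 and 177 CPM in WT αMARCO and 187 and 98.5 CPM in Unc93b1 3d/3d αMARCO. In WT it rose by 0.53 ± 0.08 (SE, adjusted p = 0.00111), and with the trend of each library on gene length taken out or without WT control replicate 1 it was 0.31 or 0.46 and no longer called. Its length in the table, 13989 bases, is second to Cenpf among the members.

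Cdkn1a was at 502 and 448 CPM in WT control, 558 and 377 CPM in Unc93b1 3d/3d control, 450.1 and 502 CPM in WT αMARCO and 486 and 529.7 CPM in Unc93b1 3d/3d αMARCO. All 4 groups overlapped, and in WT the log2 fold change was 0.01 (95% interval -0.20 to 0.22, adjusted p = 0.939). Cdkn1b, which encodes the CDK inhibitor p27, was at 144 and 146 CPM in WT control, 152 and 103 CPM in Unc93b1 3d/3d control, 129 and 129.9 CPM in WT αMARCO and 127 and 109.6 CPM in Unc93b1 3d/3d αMARCO, with a log2 fold change of -0.15 ± 0.07 (SE, adjusted p = 0.126). Its WT groups did not overlap. The factors that drive the 2 programs, E2f1, E2f2, Mybl2 and Foxm1, had log2 fold changes in WT from -0.25 to 0.13, and none was called.

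**Figure D4:**
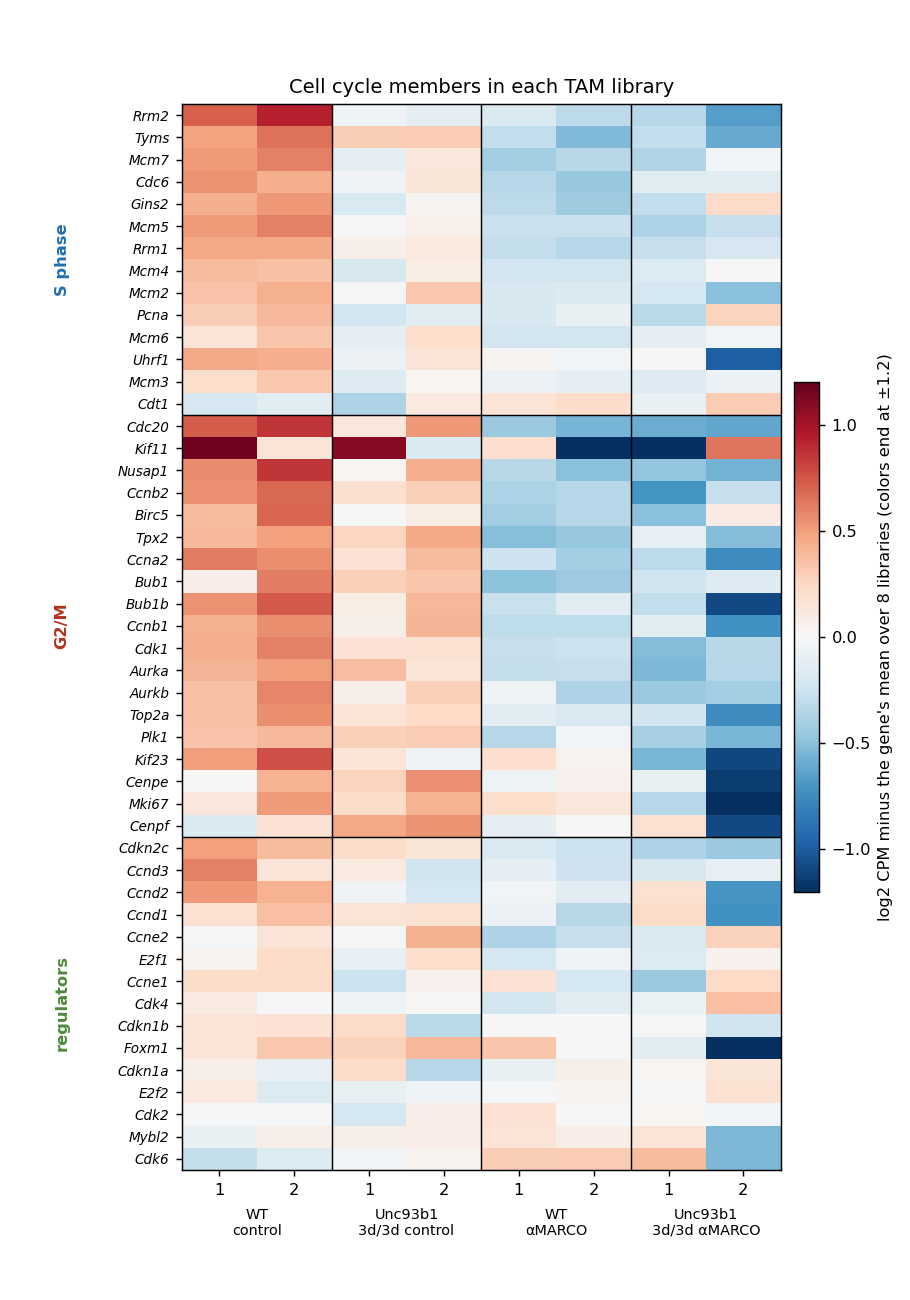
Log2 CPM of each of the 48 members (rows, sorted within class by the αMARCO fold change in WT) in the 8 libraries (columns), minus the gene's mean over the libraries. Red in the WT control columns and blue in the αMARCO columns mark most S phase and G2/M members, while most regulators stay near 0. The long genes Mki67, Cenpf and Cdk6 and the shorter Foxm1 and Uhrf1 differ between the 2 Unc93b1 3d/3d αMARCO libraries, whereas the long Rrm1 and Ccnd3 differ little.

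Beside the WT αMARCO result, the T cell markers were all lower with αMARCO, by 1.96 to 4.79 on the log2 scale. Of the 7 epithelial markers that the EO771 tumor cells might carry, Krt8 was at 42.3 and 33.9 CPM in WT control and 23.3 and 22.4 CPM in WT αMARCO, and Epcam was at 1.42 and 0.831 CPM in WT control and at 0.146 and 0 CPM in WT αMARCO. The list summed to 30.9 to 105 CPM over the 8 libraries. The summed macrophage markers were lower with αMARCO in WT too. The part of macrophages, T cells, dendritic cells or tumor cells in the lower levels of the members was not tested.

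Between genotypes without αMARCO, 7 of the 48 members were called, 6 higher and 1 lower in WT control than in Unc93b1 3d/3d control. Over all 15600 genes tested 13.0% were called, 6.58% higher and 6.40% lower. With all 8 libraries in 1 model 1 member was called, where 2.19% of all genes were. The share of members called was thus near that of all genes, and 4 of the 7 were S phase genes. Both WT libraries lay above both Unc93b1 3d/3d libraries for 29 members, among them 12 of 14 S phase and 13 of 19 G2/M members, against 33.2% of all genes. Median log2 fold changes (WT over Unc93b1 3d/3d) were 0.39 for S phase, 0.25 for G2/M, 0.04 for regulators and 0.00 for all genes.

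The S phase members called higher in WT control were Rrm2 at 0.89 ± 0.12 (SE, adjusted p = 0.00189), Mcm7 at 0.53 ± 0.11 (SE, adjusted p = 0.0130), Mcm5 at 0.51 ± 0.09 (SE, adjusted p = 0.00687) and Pcna at 0.50 ± 0.09 (SE, adjusted p = 0.00764), with the levels given above. Mcm5 was at 61.5 and 63.6 CPM in Unc93b1 3d/3d control and, in Unc93b1 3d/3d αMARCO, at 47.0 and 50.3 CPM. Ccnd2 was higher in WT control by 0.58 ± 0.10 (SE, adjusted p = 0.00566). Most of these calls lay near the fold threshold of 0.5, and of the 7 called members Rrm2 alone kept its call with each library left out in turn.

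In the G2/M class Kif23, a motor of the central spindle, was at 41.8 and 50.4 CPM in WT control, 32.7 and 28.5 CPM in Unc93b1 3d/3d control, 33.9 and 30.4 CPM in WT αMARCO and 20.1 and 13.7 CPM in Unc93b1 3d/3d αMARCO. The WT controls were highest and the Unc93b1 3d/3d αMARCO libraries lowest, and the WT controls were higher than the Unc93b1 3d/3d controls by 0.58 ± 0.13 (SE, adjusted p = 0.0177). Cenpf was lower in WT control, with a log2 fold change of -0.51 ± 0.15 (SE, adjusted p = 0.0437). Without Unc93b1 3d/3d control replicate 1 the count of called members was 3, as Mcm5, Mcm7, Pcna and Cenpf lost their calls, and without WT control replicate 2 it was 4. These counts are 6.25% and 8.33% of the members, against 9.06% and 13.3% of all genes in the same fits. Cenpf was also lost without WT control replicate 1, and Cenpf, Kif23 and Ccnd2 without Unc93b1 3d/3d control replicate 2. T cell markers were higher in WT control by 1.5 to 4.46 on the log2 scale, all 12 of them called, and their part in the genotype difference was not tested.

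With αMARCO in Unc93b1 3d/3d mice no member was called, as no gene at all (0%) was called among 15428 tested by edgeR, where 744 had an unadjusted p under 0.05. DESeq2 called 60 genes, none of them a member. The lowest adjusted p among the members was 0.823. All 19 G2/M members nevertheless had negative log2 fold changes, with a median of -0.72, and 14 of them had an unadjusted p under 0.05. Both αMARCO libraries lay below both controls for 17 of the 19 G2/M members and for 25 of all 48, against 19.2% of all genes. For S phase the median was -0.19, with 11 of 14 members negative and 6 below without overlap, and for the regulators it was -0.08.

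Members with the most negative estimates were Mki67 at -1.05 ± 0.34 (SE, adjusted p = 0.823), Foxm1 at -0.96 ± 0.41 (SE, adjusted p = 0.823) and Cdc20 at -0.95 ± 0.27 (SE, adjusted p = 0.823). Foxm1 was at 32.1 and 34.9 CPM in Unc93b1 3d/3d control and 24.2 and 10.2 CPM in Unc93b1 3d/3d αMARCO. For Mki67 and Foxm1 the size rested on replicate 2, whereas Cdc20 was at 10.4 and 10.2 CPM.

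Each of these αMARCO libraries was then set alone against the 2 controls. Without replicate 1, 25 members were called, all lower, while 34.1% of all genes were called. They were 16 G2/M, 4 S phase and 5 regulator members. Without replicate 2, 7 members were called lower, all G2/M, where 3.41% of all genes were called. Aurka, Ccnb2, Cdc20, Cdk1, Kif23 and Mki67 were called with either library left out. Without replicate 1 and without replicate 2 the log2 fold changes were -0.96 and -0.94 for Cdc20, and -1.59 and -0.66 for Mki67. Cdk1 gave -0.50 and -0.70, and Kif23 gave -1.14 and -0.60. Ccnb2 gave -0.50 and -0.96, and Aurka gave -0.60 and -0.82. In these fits a single library is assumed to vary like the others. Both fits share the same 2 control libraries, so a call in both is not independent. The share of all genes called in both was not counted.

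Under αMARCO the genotypes did not differ in any called gene (0% of 15722 genes by edgeR, with 1076 at an unadjusted p under 0.05), and DESeq2 called 214 genes with no member among them. The median log2 fold change, WT over Unc93b1 3d/3d, was -0.02 for S phase, 0.16 for G2/M and 0.06 for regulators. The estimates were 0.92 ± 0.26 (SE, adjusted p = 0.587) for Kif23 and 0.91 ± 0.34 (SE, adjusted p = 0.709) for Mki67. Without Unc93b1 3d/3d αMARCO replicate 1, 14 members were called where 38.6% of all genes were, and without replicate 2, 2 members were called where 7.45% were.

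The difference between the αMARCO effects, WT minus Unc93b1 3d/3d, was tested in a model of all 8 libraries. No member and no gene (0% of 16620) was called by edgeR, with 2549 genes at an unadjusted p under 0.05, and DESeq2 called 211 genes with no member. S phase members had a median difference of -0.45, and 8 of the 14 had an unadjusted p under 0.05, with a lowest adjusted p of 0.318. Mcm7 differed by -0.72 ± 0.24 (SE, adjusted p = 0.318), with an αMARCO fold change of -0.92 in WT and -0.20 in Unc93b1 3d/3d. For G2/M the median difference was -0.13 and no member had an unadjusted p under 0.05. Mki67 differed by 0.89 ± 0.40 (SE, adjusted p = 0.327). Without Unc93b1 3d/3d αMARCO replicate 1, 15 members were called where 36.4% of all genes were, and without replicate 2 it was 2 members where 3.45% were. A larger αMARCO effect on S phase genes in WT than in Unc93b1 3d/3d was therefore not shown, and the intervals do not show equal effects either.

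Other genes of the same pathways were counted from 3 lists, also chosen with earlier results of these data known. With αMARCO in WT, 16 of 43 other replication genes tested (37.2%) were called, all lower, against 11.8% of all genes called lower. Fen1, the flap endonuclease, fell by 1.24 ± 0.30 (SE, adjusted p = 0.0107) to 1.5 and 2.08 CPM, and Dut, which clears dUTP, by 0.82 ± 0.14 (SE, adjusted p = 0.00185). Of 56 other mitosis genes 32 (57.1%) were called, again all lower. Hmmr, a spindle protein, fell by 1.42 ± 0.17 (SE, adjusted p = 0.000377), from 15.9 and 19 CPM to 6.65 and 6.29 CPM. Prc1, the crosslinker of the central spindle, fell by 1.13 ± 0.12 (SE, adjusted p = 0.000229). The mitotic kinase Nek2 was called too, but it was at 0.579 and 2.72 CPM in WT control and between 0.0451 and 0.272 CPM, near the floor of detection, in the other 6 libraries.

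Among 37 other regulators tested, 4 were lower and 3 higher with αMARCO in WT, in all 18.9%, near the 20.7% of all genes called. Those lower included Gadd45a, a stress-induced cell cycle brake, at -0.69 ± 0.15 (SE, adjusted p = 0.00675), the p19 inhibitor Cdkn2d at -0.62 ± 0.12 (SE, adjusted p = 0.00381) and Ccng1, a p53 target, at -0.60 ± 0.08 (SE, adjusted p = 0.000708). The genes that rose were Mdm2, the ligase that degrades p53, at 0.73 ± 0.09 (SE, adjusted p = 0.000444), the antiproliferative gene Btg2 at 0.57 ± 0.12 (SE, adjusted p = 0.00557) and E2f3 at 0.55 ± 0.13 (SE, adjusted p = 0.00946).

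In the control genotype comparison 2 of 43 other replication genes, 7 of 56 mitosis genes and 3 of 37 regulators were called higher in WT, and 1 regulator lower. In all 4.65% of the replication genes, 12.5% of the mitosis genes and 10.8% of the regulators were called, against 13.0% of all genes called and 6.58% called higher. Tk1, thymidine kinase, was at 78.8 and 71.7 CPM in WT control and 31.5 and 39.8 CPM in Unc93b1 3d/3d control, and it was higher by 1.06 ± 0.13 (SE, adjusted p = 0.000853). The single-strand binding subunit Rpa2 was higher by 0.73 ± 0.14 (SE, adjusted p = 0.00716). Prc1 and the microtubule regulator Stmn1 were higher by 0.69 ± 0.16 (SE, adjusted p = 0.0178) and 0.67 ± 0.15 (SE, adjusted p = 0.0192). Gadd45b was higher by 0.82 ± 0.10 (SE, adjusted p = 0.00103), Fbxo5, an inhibitor of the anaphase-promoting complex, by 0.72 ± 0.18 (SE, adjusted p = 0.0242) and Lin37, a subunit of the DREAM complex, by 0.51 ± 0.15 (SE, adjusted p = 0.0469). E2f8, a repressing E2F factor, was lower by 0.58 ± 0.14 (SE, adjusted p = 0.0196). The WT αMARCO and the control genotype comparisons share the WT control libraries, so their calls are not independent of each other.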

How the data were processed

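Bulk poly-A RNA-seq of sorted TAMs was analysed in 8 libraries, and the scRNA-seq data were not analysed here. Per the submitters' processing notes and methods, the authors cleaned reads with fastp, aligned them to GRCm38 (HISAT2 2.0.5) and obtained gene counts (featureCounts 1.5.0), and strandedness is not given in the sources used here. The authors deposited 3 tables of raw counts per gene, each with 2 groups, that list genes with at least 2 counts in total. They were joined by gene identifier to 26939 genes, and 95230 counts present in more than 1 table did not differ. The 24 per-sample columns of deposited normalized values and FPKM, and the authors' DESeq2 1.40.2 comparison columns (fold changes, p-values and adjusted p-values), were not used.

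Each pair of groups was fitted on its 4 libraries in edgeR 4.0.16 under R 4.3.3 (filterByExpr, TMM, robust glmQLFit, glmQLFTest, Benjamini-Hochberg over all genes tested), as the study compared pairs of groups. A call needed an adjusted p no higher than 0.05 and a log2 fold change of 0.5 or more in size. Differences between effects used the 4 groups in 1 model. The procedure was tested on simulated counts with 200 changed genes per comparison. All 200 were recovered in each, with 6 to 16 false calls. This checked only that the procedure runs as intended. The recovery does not measure the power to find changes of the size and spread seen in these libraries. In particular, it is no evidence of power in the comparisons where edgeR called no gene. DESeq2 1.42.0, other scalings, filters, fold thresholds, sets of libraries, a replicate block and leaving out each library were alternatives. A correction for gene length and a model of 6 libraries were chosen after seeing the data. Depth was 15182618 to 26411936 counts per library, and floors cover counting error only.

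The members, their classes and the other gene lists were chosen with earlier results of these data known, so that no list is independent evidence. In each class, the 3 members with the highest mean CPM and up to 3 called members per direction and comparison with the largest log2 fold changes are named with values, and of the 3 other cell cycle lists up to 3 called genes per direction. One gene that this rule names is not reported here. The other members were named after their values were seen. CPM used TMM factors over the 8 libraries, and intervals are at the 95% level. Nothing in the labels says that equal replicate numbers mark a shared animal, pool or day. Marker lists covered macrophages and 9 other kinds of cell, and the T cell, dendritic cell and epithelial lists are given with the results. Itgam, with 2 identifiers, was left out of the 10 macrophage markers. In the WT αMARCO comparison 4 of 7 NK cell markers tested, 1 of 3 B cell, 3 of 7 fibroblast and 2 of 4 endothelial markers were called lower. Of the neutrophil markers 2 of 4 were called lower, yet their sum was higher, at 301 and 293 CPM in WT control and 361 and 358 CPM in WT αMARCO. Over all genes 11.8% were called lower. One of 5 monocyte markers was called higher. Of the 9 macrophage markers 4 were called lower.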

Additional observations from a re-analysis of the deposited data

Results flagged for a closer look

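For 4 S phase members both WT libraries lay above both Unc93b1 3d/3d libraries without αMARCO and below them with αMARCO, an opposite order that marked them for a closer look. The same order was found in 1124 of 16620 genes (6.76%), so 4 of 48 members (8.33%) is near the share of all genes. The rule that marked them took an opposite order in either pair of comparisons, by genotype or by treatment. By that wider rule 3079 genes (18.5%) and the same 4 members (8.33%) were marked. Mcm4 was at 55.7 and 54.4 CPM against 37.3 and 45.5 CPM in the controls, and at 36.4 and 36.6 CPM against 38.0 and 42.8 CPM with αMARCO. Rrm1 was at 71.5 and 70.8 CPM against 54.4 and 56.3 CPM, and then at 42.5 and 40.8 CPM against 42.6 and 44.9 CPM. Gins2 went from 14.3 and 15.2 CPM against 9.29 and 10.8 CPM to 8.49 and 7.83 CPM against 8.57 and 12.4 CPM. Cdc6 went from 13.5 and 12.6 CPM against 9.04 and 10.2 CPM to 7.28 and 6.75 CPM against 8.39 and 8.43 CPM.

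The test of the difference itself, the αMARCO effect in WT minus that in Unc93b1 3d/3d, gave -0.56 ± 0.22 for Mcm4, -0.43 ± 0.18 for Rrm1, -0.91 ± 0.33 for Gins2 and -0.70 ± 0.28 for Cdc6 on the log2 scale (SE). Unadjusted p-values were 0.0322, 0.0442, 0.0235 and 0.0358, and the adjusted p-values of 0.318, 0.324, 0.318 and 0.318 did not pass in edgeR's test over all genes. The margin with αMARCO was small for Rrm1, and the Unc93b1 3d/3d αMARCO libraries are the pair that stood apart from each other. Gins2 overlaps Gse1 on the other strand.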

How the results depend on the processing

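With αMARCO in WT, 26 to 29 members were called, against 28, under DESeq2, DESeq2 size factors, both other filters, the gene length correction, the replicate block and the model of 6 libraries, and 27 to 28 when single libraries were left out. All 8 libraries in 1 model, where the spread is shared with the Unc93b1 3d/3d αMARCO pair, gave 5 (10.4% of the members, with 0.987% of all genes called), and a log2 fold threshold of 1 gave 3 (6.25%, with 8.74% of all genes called). With no fold threshold the count was 34 (70.8% of the members, with 35.1% of all genes called). Without control replicate 2, Mki67 and Cenpf changed sign, as Cenpf did without αMARCO replicate 1 (0.018), and the ranges over left-out libraries were -0.34 to 0.034 for Mki67, -0.22 to 0.13 for Cenpf and -0.075 to 0.096 for Cdkn1a, which changed sign without control replicate 2 or αMARCO replicate 2. In the control genotype comparison the count of 7 became 11 with no fold threshold, 1 with all 8 libraries in 1 model (2.19% of all genes called), 0 at a log2 fold threshold of 1 (6.10% of all genes) and 3 to 7 when single libraries were left out, and it was 5 to 8 otherwise. With αMARCO in Unc93b1 3d/3d the count of 0 became 1 with no filter on low counts and 0 to 25 when single libraries were left out. Left-out libraries gave 0 to 14 for the genotypes under αMARCO and 0 to 15 for the difference of effects, and in both every other alternative gave 0. Of 855 values of named members under an alternative, 5 changed sign, 93 lost and 33 gained a call. Of 87 class medians 86 kept their sign, the exception being S phase between genotypes under αMARCO (0.00 without 1 library). Equal replicate numbers were treated as names, since the deviations of equally numbered libraries correlated at 0.01, 0.14, -0.00 and 0.11 in the 4 comparisons and 2 pairs cannot settle it. The replicate block gave 8, 0, 29, 0 and 0 called members in the order control genotypes, αMARCO genotypes, αMARCO in WT, αMARCO in Unc93b1 3d/3d and difference of effects. With 2 libraries a group, low-count members such as Kif11 are not resolved, and the causes of these changes were not tested.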
